A study of Mus musculus with 24 samples.

Results

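Skin of fed mice, taken 4 or 8 h after food opened, was compared with skin of fasting mice taken at the same hours of the light phase. The fed side was the ED group, which could eat from ZT0 to ZT4, and the fasting side was the EN group, which could eat from ZT12 to ZT16 (ZT counts hours since lights on). The members were chosen by group and sampling time alone: ED04, ED08 and ED28, taken 4, 8 and 4 h after food opened, against EN04, EN08 and EN28, taken 16, 20 and 16 h after it opened. ED08 was taken after food had closed at ZT4. The members are 6 of the 24 pools of the series. ED28 and EN28 repeat the clock time of ED04 and EN04 on the second day. Each pool is RNA of whole back skin from 2 to 4 mice, sequenced after a stranded total RNA preparation. All mice were wild-type C57BL/6NCrl males of about 8 weeks on regular chow, with hair follicles at rest (telogen, checked by histology per the labels), after 18 to 21 days of restricted feeding in 12 h of light and 12 h of dark. The remaining group, MD, ate from ZT5 to ZT9 and serves below as a further fed and fasting comparison. By its title, the series asks whether feeding schedules change the timing of the skin clock.

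After a meal, insulin turns tissues to making and storing fat and glycogen, and in a fast fatty acids released from fat become fuel through the nuclear receptor PPARA and related signals. The circadian clock runs beside this. CLOCK or NPAS2 with BMAL1 (the product of Arntl) activates genes through DNA sites called E-boxes, the PER and CRY proteins repress that activity, and the REV-ERB receptors (Nr1d1, Nr1d2) repress Arntl. Meal time can move the clock of peripheral tissues, so a gene may differ between 2 groups fed at different hours because of the meal or because its daily curve is displaced. In whole skin, fewer cells of a type and less RNA per cell cannot be told apart.

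Levels are CPM, exon read counts scaled to library size with TMM factors. The 6 pools held 15049372 to 18768478 exon counts, and all 24 held 13091637 to 26052550. With 1 pool per group and sampling time, the spread came from the second-day repeats in 1 model of 18 group and time cells over 24 pools (6 residual degrees of freedom). The pairs of first-day and second-day pools differed by a median of 0.137 to 0.264 (log2) across genes. A pair of pools outside the day comparison stood apart by hair follicle keratins of the growing stage: although all skin is labelled telogen, that list summed to 958 CPM in ED24 and 2735 CPM in EN00. In the day comparison this list summed to 20.5 to 66.9 CPM in ED, with ED08 highest, and to 17.0 to 20.9 CPM in EN. Neutrophil markers were lower in ED, with 3 of 3 measured members not overlapping and sums of 2.33 to 4.76 CPM, against 5.90 to 11.6 CPM in EN; their defining gene Ly6g had no matching row. In 2 of 4 melanocyte markers the ED pools were also all below the EN pools, which held for 6.34% of all genes tested. Sums of skeletal muscle, fat cell, keratinocyte, fibroblast, macrophage, red cell and endothelial markers overlapped between the groups, muscle with 10070 to 20450 CPM in ED and 8570 to 20630 CPM in EN. The part of these in the results was not tested.

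By day 20 of 15719 genes differed between fed ED and fasting EN skin (edgeR quasi-likelihood test, Benjamini-Hochberg adjusted p under 0.05). Of these, 12 were higher in ED, 0.0763% of all genes tested, and 8 were lower, 0.0509%. At an unadjusted p under 0.05 there were 1089 genes. Without each of the 6 pools in turn 9 to 21 genes passed (9 without EN04; 10 without ED08, EN08 or ED28), and 6 of the 20 passed without every one of them: Gm6484, Ppp1r3b, Thrsp, Angptl4, Cpt1a and Dbp. Of the other 14, Scd2 and Pck1 passed in 4 of these 6 fits, G0s2, Arntl, Cry1 and Nr1d1 in 3, Pdk4, Per1, Lonrf3 and Rasd1 in 2, Gsta3, Nabp1 and Sdf2l1 in 1, and Pnpla3 in 0. When ED08 or EN08 was left out, ZT8 dropped from both groups, so those fits compared ZT4 alone. The 20 genes comprised 9 members of the metabolic lists, 5 clock genes, 1 chaperone of the endoplasmic reticulum and 5 genes in none of the lists. In 19 of the 20 the sign was the same at ZT4, ZT8 and ZT28, and in 16 the 3 ED pools did not overlap the 3 EN pools. For all genes tested, the ED pools lay entirely above the EN pools in 7.09% and entirely below them in 6.34%. Every difference below is ED minus EN on the log2 scale with its standard error, unless another comparison is named.

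**Figure D1:**
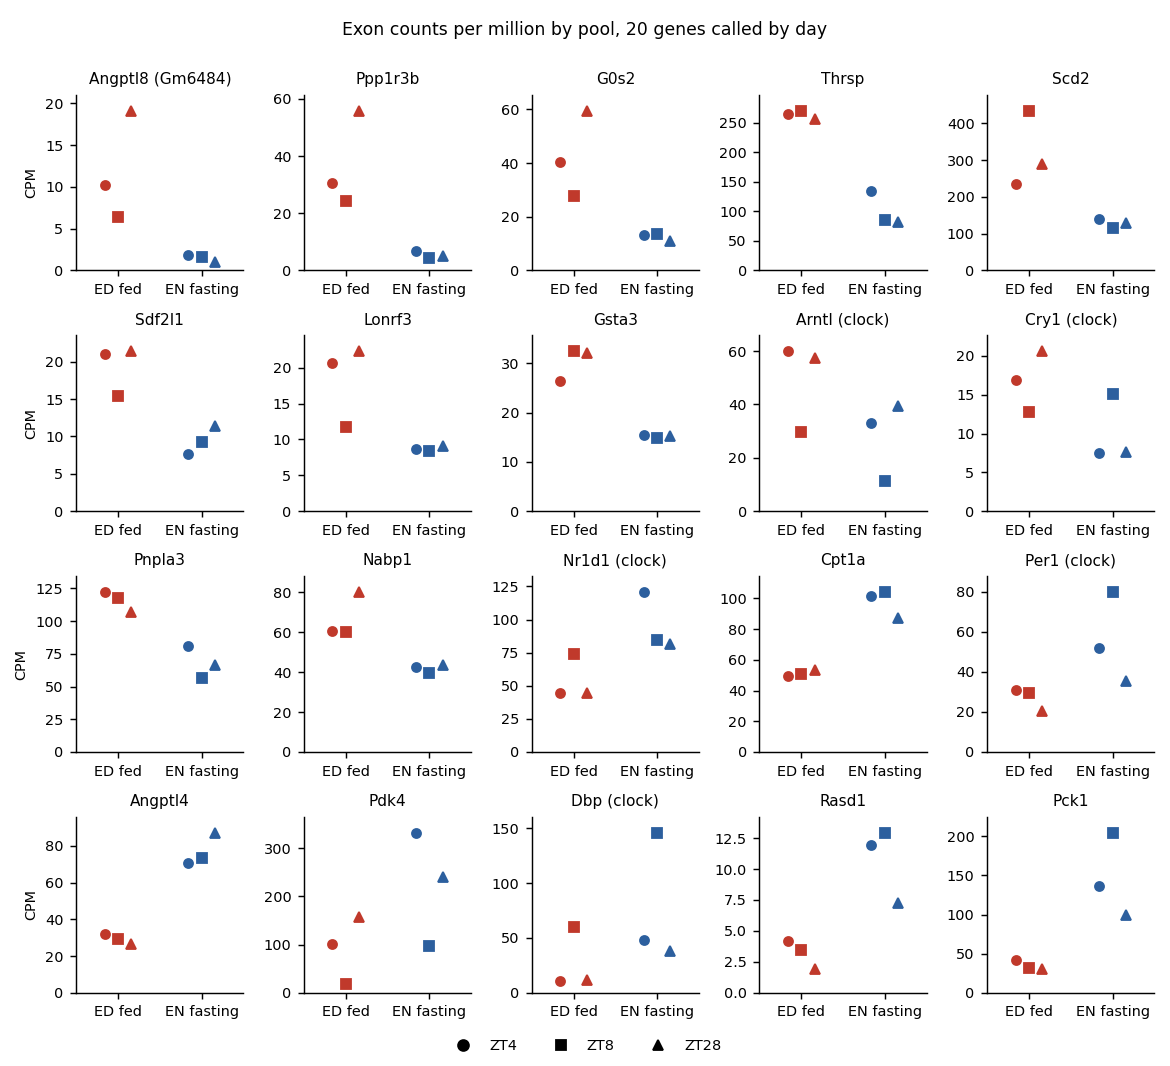
Exon CPM of the 20 genes called by day, 1 panel a gene on its own scale, with the fed ED pools left of the fasting EN pools and the symbol showing the sampling time. Each point is 1 pool. Thrsp, Cpt1a and Angptl4 are nearly level across the 3 ED pools, while Dbp, Arntl and Pdk4 move with the hour in both groups; Cry1 is the gene whose ZT8 values run against its other times.

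The largest rises in fed ED were in Angptl8 and Ppp1r3b. Angptl8, a secreted inhibitor of lipoprotein lipase that is induced by feeding, is listed in the files under its older symbol Gm6484 (uc009omr.1; chromosome 9, 21835510 to 21837347 on GRCm38.p6, inside Dock6, which lies on the other strand). It had 10.2, 6.44 and 19.1 CPM in ED04, ED08 and ED28, against 1.78, 1.56 and 1.01 CPM in EN04, EN08 and EN28. Every ED pool exceeded every EN pool, and the difference was 2.93 ± 0.30 (adjusted p = 0.000989). Dock6 itself differed by 0.08 ± 0.13 (adjusted p = 0.935). Ppp1r3b encodes a subunit that brings protein phosphatase 1 to glycogen and favours glycogen synthesis (uc009lkw.1; chromosome 8, 35375694 to 35388139). Its level was 30.6, 24.1 and 55.9 CPM in ED04, ED08 and ED28, against 6.76, 4.34 and 5.04 CPM in EN04, EN08 and EN28. The pools of the groups lay far apart, and the difference was 2.73 ± 0.24 (adjusted p = 0.000683).

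G0s2, which encodes an inhibitor of the triglyceride lipase ATGL, also rose. It had 40.6, 27.8 and 59.6 CPM in ED04, ED08 and ED28, against 13.3, 13.7 and 11.03 CPM in EN04, EN08 and EN28 (1.70 ± 0.24, adjusted p = 0.0141). In all 3 of these genes ED28 was the highest pool and ED08, taken 8 h after food opened, the lowest of the ED pools. The decline from 4 to 8 h was not a tested difference: the test of whether the ZT8 difference departed from the ZT4 difference called 0 of 15719 genes (0%; 257 at an unadjusted p under 0.05, and 1 gene with DESeq2).

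Lipogenic genes formed the next group. Thrsp, a nuclear protein that promotes fatty acid synthesis, had 264, 271 and 256 CPM in ED04, ED08 and ED28, against 135, 85.8 and 82.5 CPM in EN04, EN08 and EN28 (1.39 ± 0.16, adjusted p = 0.00167). Scd2, a stearoyl-CoA desaturase, had 234, 435 and 290 CPM in ED04, ED08 and ED28, against 141, 115 and 130 CPM in EN04, EN08 and EN28 (1.27 ± 0.14, adjusted p = 0.00167). Its highest pool was ED08, as for Thrsp, which was nearly level across the ED pools. Pnpla3, a lipid droplet protein related to ATGL, had 122, 118 and 107 CPM in ED04, ED08 and ED28, against 81.3, 56.6 and 66.5 CPM in EN04, EN08 and EN28 (0.78 ± 0.13, adjusted p = 0.0456), a call that was lost when any 1 of the 6 pools was left out (adjusted p up to 0.396). These were the 3 of 24 tested members of the fatty acid and triglyceride synthesis list that rose, and 0 fell. In 8 of the 24 all ED pools lay above all EN pools (33.3%, against 7.09% of all genes). The list's median difference was 0.31, against -0.0049 over all genes tested. In exon reads Acly, which makes cytosolic acetyl-CoA, differed by 0.65 ± 0.17 (adjusted p = 0.301), and Fasn, the fatty acid synthase, by 0.46 ± 0.23 (adjusted p = 0.748). Neither passed, but Acly did in the intron reads given below. Agpat2, which acylates lysophosphatidic acid on the way to triglyceride, had the next largest difference of the list after Thrsp and Scd2, without passing (1.00 ± 0.26, adjusted p = 0.301). Scd1, the more abundant desaturase gene, was not called and its pools overlapped. It had 8755, 7930 and 7925 CPM in ED04, ED08 and ED28, against 9481, 7814 and 5578 CPM in EN04, EN08 and EN28. Reads of the near-identical Scd genes could be divided among them, as how such reads were counted was not given in the sources used here.

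Genes of the fasting state were lower in ED. Pck1 encodes the enzyme that makes phosphoenolpyruvate, in fat cells for the glycerol backbone of triglyceride. Its level was 42.5, 31.2 and 30.4 CPM in ED04, ED08 and ED28, against 136, 204 and 99.0 CPM in EN04, EN08 and EN28. The difference of -2.03 ± 0.23 (adjusted p = 0.00167) was the largest fall of the comparison. Angptl4, an inhibitor of lipoprotein lipase and a PPARA target, had 32.0, 29.1 and 26.5 CPM in ED04, ED08 and ED28, against 70.6, 73.3 and 87.0 CPM in EN04, EN08 and EN28 (-1.40 ± 0.14, adjusted p = 0.000815). Angptl8 and Angptl4, both inhibitors of the same lipase, thus moved in opposite directions.

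Cpt1a, which admits long-chain fatty acids to the mitochondrion, was among the steadiest. It had 49.7, 50.7 and 53.4 CPM in ED04, ED08 and ED28, against 102, 104 and 87.1 CPM in EN04, EN08 and EN28 (-0.93 ± 0.10, adjusted p = 0.00118). Pdk4, a kinase that blocks the entry of pyruvate to oxidation, had 100.5, 19.1 and 157 CPM in ED04, ED08 and ED28, against 331, 96.2 and 241 CPM in EN04, EN08 and EN28. It fell by 1.55 ± 0.22 (adjusted p = 0.0163) and was lower in ED at each hour, but ED28 and ED04 lay above EN08; Pdk4 was lowest at ZT8 in both groups. Angptl4, Cpt1a and Pdk4 were the 3 of 22 tested members of the fatty acid oxidation and PPARA list that fell, and 0 rose. The list as a whole had a median of -0.057, and the beta-oxidation enzyme genes Acadm and Hadha differed by 0.04 ± 0.12 (adjusted p = 0.979) and -0.06 ± 0.10 (adjusted p = 0.936). Ucp3, a mitochondrial carrier of muscle and brown fat, lay below EN in all ED pools without passing (-1.01 ± 0.20, adjusted p = 0.109). Fgf21, the fasting hormone of that list, was below the count filter.

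The remaining metabolic lists held few calls. In the lipolysis list 1 of 11 members rose (G0s2) and 1 fell (Pck1). Adrb3, the beta-3 adrenergic receptor of fat cells, had 8.71, 11.8 and 5.31 CPM in ED04, ED08 and ED28, against 24.51, 17.1 and 18.8 CPM in EN04, EN08 and EN28, without passing (-1.26 ± 0.27, adjusted p = 0.131). Lipe, the hormone-sensitive lipase, differed by -0.67 ± 0.17 (adjusted p = 0.26). In the glycogen list 1 of 14 members rose (Ppp1r3b) and 0 fell. Ppp1r3c, another glycogen-targeting subunit, had 138, 91.4 and 184 CPM in ED04, ED08 and ED28, against 78.3, 21.4 and 85.0 CPM in EN04, EN08 and EN28 (1.35 ± 0.26, adjusted p = 0.0793). None of 25 cholesterol genes, 21 genes of glucose uptake and glycolysis, 15 of insulin and FOXO signalling or 22 ATF4 targets passed. For cholesterol synthesis and uptake, however, all ED pools lay above all EN pools in 10 of 25 members (40%, against 7.09% of all genes) and below in 0, with a median difference of 0.22. Insig1, the sterol sensor partner, differed by 0.63 ± 0.13 (adjusted p = 0.109). Pfkfb3, which makes an activator of glycolysis, was below EN in all ED pools (-1.09 ± 0.20, adjusted p = 0.0735), as was Txnip, an inhibitor of glucose uptake (-0.73 ± 0.21, adjusted p = 0.396).

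Besides Angptl8, the genes called by day that belong to no list were Lonrf3, Gsta3, Nabp1 and Rasd1. Gsta3, a glutathione transferase, had 26.4, 32.4 and 32.1 CPM in ED04, ED08 and ED28, against 15.5, 14.9 and 15.2 CPM in EN04, EN08 and EN28 (0.99 ± 0.15, adjusted p = 0.0289; called in 1 of the 6 fits without 1 pool, with adjusted p up to 0.193). Nabp1, a single-stranded DNA binding protein of DNA repair, had 60.8, 60.3 and 80.0 CPM in ED04, ED08 and ED28, against 42.6, 39.7 and 43.8 CPM in EN04, EN08 and EN28 (0.67 ± 0.11, adjusted p = 0.0452; called in 1 of the 6 fits without 1 pool, with adjusted p up to 0.25). Both were nearly level across the EN pools. Lonrf3, which encodes a ring finger protein, had 20.6, 11.8 and 22.3 CPM in ED04, ED08 and ED28, against 8.66, 8.45 and 9.01 CPM in EN04, EN08 and EN28 (1.01 ± 0.16, adjusted p = 0.0334). Rasd1, a small G protein induced by glucocorticoids, had 4.17, 3.46 and 1.93 CPM in ED04, ED08 and ED28, against 12.0, 12.9 and 7.26 CPM in EN04, EN08 and EN28 (-1.74 ± 0.28, adjusted p = 0.0334). Of 14 glucocorticoid response genes none passed, with a median of -0.23.

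**Figure D2:**
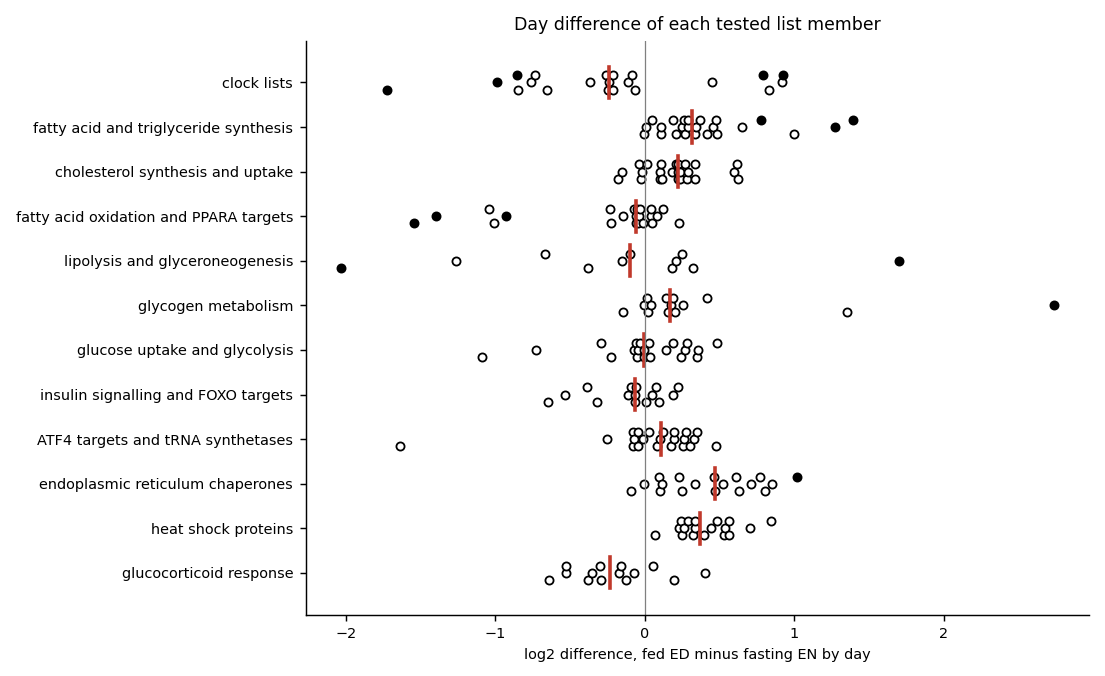
Log2 difference of fed ED minus fasting EN by day for each tested member of 11 lists and of the pooled clock lists, with filled points for adjusted p under 0.05 and a red bar at the list median. Clock genes spread to both sides, lipid synthesis and both chaperone lists sit to the right of 0, and the oxidation list has a median near 0 with a tail of fasting genes to the left.

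Chaperones of the endoplasmic reticulum, which fold secreted proteins, and cytosolic heat shock proteins were higher in ED pools in most members, although 1 of 36 tested members passed. That member was Sdf2l1, part of a chaperone complex of the endoplasmic reticulum, with 21.0, 15.4 and 21.4 CPM in ED04, ED08 and ED28, against 7.62, 9.26 and 11.4 CPM in EN04, EN08 and EN28 (1.02 ± 0.16, adjusted p = 0.0325), and it passed in 1 of the 6 fits without 1 pool (adjusted p up to 0.181). In the reticulum list all ED pools lay above all EN pools in 13 of 18 members (72.2%) and below in 0, with a median of 0.47. Hspa5, which encodes the chaperone BiP, had 477, 314 and 637 CPM in ED04, ED08 and ED28, against 233, 277 and 281 CPM in EN04, EN08 and EN28 (0.80 ± 0.15, adjusted p = 0.0722). Hsp90b1, which encodes GRP94, differed by 0.61 ± 0.11 (adjusted p = 0.0735) and Creld2, a secreted stress protein, by 0.85 ± 0.15 (adjusted p = 0.0569). In the heat shock list the pools were apart in the same direction in 14 of 18 members (77.8%), with a median of 0.37. Over all genes tested, the ED pools lay above the EN pools in 7.09%. Hspa8, the constitutive cytosolic HSP70, had 1457, 1221 and 1963 CPM in ED04, ED08 and ED28, against 951, 1070 and 1088 CPM in EN04, EN08 and EN28 (0.56 ± 0.15, adjusted p = 0.303). In these genes ED28 was highest and ED08 lowest of the ED pools. The cold-induced RNA-binding protein genes lay the other way, Cirbp at -0.77 ± 0.16 (adjusted p = 0.109) and Rbm3 at -0.53 ± 0.10 (adjusted p = 0.0961). Reads of Hspa1a and Hspa1b, which are near-identical, cannot be assigned with certainty.

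The promoters of the reticulum list are shown because most of its members lay on the same side and the list is known for this element. The ER stress element, searched as CCAAT, 9 bases of any kind and CCACG on either strand, was found in the 250 bases before the start of 7 of the 16 listed genes with a RefSeq promoter (43.8%), against 0.13% of all 27025 genes with one. Sdf2l1 held no match in this window. Calr, Canx and Dnajc3 also held a match but are not printed. Of these, Calr had overlapping pools, with 432 CPM in ED04 and 462 CPM in EN28. Capitals mark the element, and each line gives the strand of the gene 5′ to 3′ on GRCm38.p6.
Hspa5 (chr2:34772013-34772055, + strand): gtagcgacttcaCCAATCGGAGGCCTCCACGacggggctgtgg
Hsp90b1 (chr10:86705626-86705668, − strand): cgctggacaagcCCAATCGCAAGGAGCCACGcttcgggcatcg
Hsp90b1, second match, reversed (chr10:86705521-86705563, − strand): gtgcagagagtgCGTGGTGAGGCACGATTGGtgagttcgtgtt
Creld2, reversed (chr15:88819508-88819550, + strand): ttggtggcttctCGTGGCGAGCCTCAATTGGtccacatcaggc
Pdia6, a disulfide isomerase (chr12:17266479-17266521, + strand): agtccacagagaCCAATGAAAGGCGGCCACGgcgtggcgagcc

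Of the 21 clock genes, 2 rose and 3 fell by day. Dbp, a transcription factor that the clock drives directly (chromosome 7, 45705100 to 45710203), had 10.98, 60.1 and 11.4 CPM in ED04, ED08 and ED28, against 47.7, 146 and 38.2 CPM in EN04, EN08 and EN28. At each hour ED was lower, but ED08 exceeded EN04 and EN28, and Dbp was higher at ZT8 than at ZT4 in both groups (-1.72 ± 0.16, adjusted p = 0.000683). Arntl, which encodes BMAL1 (chromosome 7, 113178471 to 113314126), had 59.9, 29.6 and 57.5 CPM in ED04, ED08 and ED28, against 32.9, 11.4 and 39.6 CPM in EN04, EN08 and EN28 (0.93 ± 0.12, adjusted p = 0.00956). Nr1d1, which encodes REV-ERB alpha (chromosome 11, 98767932 to 98775377), had 44.6, 74.3 and 44.3 CPM in ED04, ED08 and ED28, against 121, 84.7 and 81.9 CPM in EN04, EN08 and EN28 (-0.86 ± 0.14, adjusted p = 0.0325). Per1, a period repressor that also answers quickly to hormones, had 30.9, 29.5 and 20.6 CPM in ED04, ED08 and ED28, against 51.9, 79.8 and 35.6 CPM in EN04, EN08 and EN28 (-0.99 ± 0.16, adjusted p = 0.0369).

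Cry1, a late repressor, was the call whose sign depended on the hour. It had 16.9, 12.8 and 20.6 CPM in ED04, ED08 and ED28, against 7.50, 15.1 and 7.67 CPM in EN04, EN08 and EN28, so that ED was higher at ZT4 and ZT28 and lower at ZT8 (0.79 ± 0.12, adjusted p = 0.0325). Among members that did not pass, the activators Npas2 (0.83 ± 0.18) and Clock (0.45 ± 0.11) and the repressor of D-box genes Nfil3 (0.92 ± 0.16) lay above 0. Nr1d2 (-0.74 ± 0.14), Per3 (-0.76 ± 0.16), Tef (-0.65 ± 0.13) and Ciart, listed as Gm129 (-0.85 ± 0.21), lay below it (adjusted p from 0.0613 to 0.253 over these 7). Cry1 and Nfil3, both repressors, lay on the side of the activators. In 1 of the 21 members all ED pools were above all EN pools (4.76%) and in 2 below (9.52%), beside 7.09% and 6.34% of all genes. Dbp shares part of its locus with Sphk2 and Nr1d1 with Thra on the other strand. These neighbours differed by 0.01 ± 0.09 (Sphk2, adjusted p = 0.993) and -0.08 ± 0.09 (Thra, adjusted p = 0.888).

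E-boxes are shown for the clock genes called by day that hold one. An E-box, searched as CACGTG or its variant CACGTT on either strand, was found in the 250 bases before the start in 7 of 17 clock genes with a promoter entry (41.2%), against 10.9% of all 27025 genes with one. The share was not particular to clock genes. Among other lists it ran from 5.26% (fatty acid oxidation) and 13.3% (heat shock) to 36.4% (glycogen) and 41.7% (glucocorticoid response). Per1, Cry1 and Nr1d1 held one, and Dbp and Arntl held none in this window. Here and for the ER stress element, a gene counted if any of its RefSeq starts had a match. The Per1 match precedes an internal start: it lies within the gene's span (69095108 to 69109965, + strand), not before its first start. Capitals mark the E-box.
Per1 (chr11:69098771-69098800, + strand): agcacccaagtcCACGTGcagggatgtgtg
Cry1 (chr10:85185097-85185126, − strand): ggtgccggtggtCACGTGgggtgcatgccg
Cry1, variant, reversed (chr10:85185116-85185145, − strand): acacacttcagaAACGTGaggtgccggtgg
Nr1d1, variant, reversed (chr11:98775388-98775417, − strand): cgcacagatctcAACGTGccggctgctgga

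Clock genes peaked later in ED than in EN. Over the 15 clock genes with a fitted amplitude of at least 0.5 (log2, mean to peak) in both groups, the peak came a median of 3.30 h later in ED (range 1.58 to 6.20 h). Dbp peaked at ZT 12.4 ± 0.41 h in ED and at ZT 9.02 ± 0.28 h in EN, and Arntl at ZT 0.85 ± 0.53 h in ED and at ZT 21.6 ± 0.52 h in EN (standard errors of cosine fits to the 8 pools of a group). The comparisons that follow place the same genes beside other pools.

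**Figure D3:**
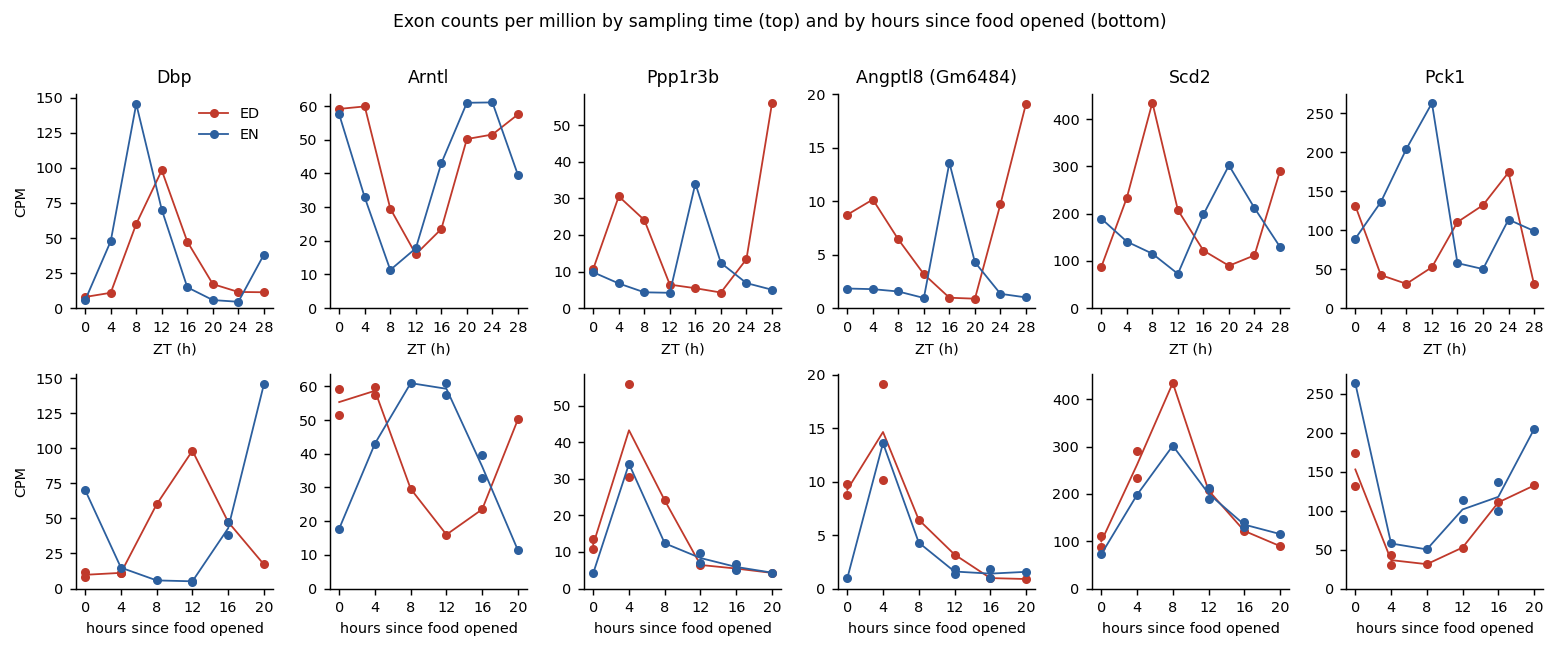
Exon CPM of 6 genes in the 8 ED pools (red) and 8 EN pools (blue), against sampling time in the upper row and against hours since food last opened in the lower row, where lines join the means of pools with the same hours. The curves of Ppp1r3b, Angptl8, Scd2 and Pck1 come close to each other in the lower row, while those of Dbp and Arntl come closer in the upper row.

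First, fed ED was set against EN taken 4 h earlier (EN ZT0 and ZT4 pools), a step near the displacement of the clock peaks, with EN 12 to 16 h past the opening of food. This comparison shares the ED pools, EN04 and EN28 with the one by day, so the values stand side by side and are no second test. It called 12 genes, 7 higher (0.0445%) and 5 lower (0.0318%), of which 9 were also called by day. All 15 day calls outside the clock lists had the same sign, with Angptl8 (Gm6484) at 2.86 ± 0.28 (adjusted p = 0.000844), Ppp1r3b at 2.26 ± 0.22 (adjusted p = 0.000844), Angptl4 at -1.67 ± 0.13 (adjusted p = 0.000228) and Pdk4 at -2.21 ± 0.22 (adjusted p = 0.000844). Of the 5 clock calls 2 had the same sign and none passed. Dbp lay at 0.91 ± 0.17 (adjusted p = 0.118), on the other side of 0 from its day value, Arntl at -0.11 ± 0.12 (adjusted p = 0.837), Nr1d1 at 0.25 ± 0.13 (adjusted p = 0.637) and Per1 at -0.15 ± 0.16 (adjusted p = 0.834). Lonrf3, Gsta3 and Rasd1 had 0.52 ± 0.15, 0.51 ± 0.14 and -0.68 ± 0.28, against 1.01 ± 0.16, 0.99 ± 0.15 and -1.74 ± 0.28 by day. Without EN00 and ED24, the pools with hair keratins, 4 genes were called (Angptl8, Ppp1r3b, Angptl4 and Pdk4).

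The clock gene that passed here was Per2, a period repressor. By day it had 6.87, 13.4 and 11.6 CPM in ED04, ED08 and ED28, against 7.86, 42.4 and 5.04 CPM in EN04, EN08 and EN28, with no call (-0.22 ± 0.20, adjusted p = 0.872). Against EN taken 4 h earlier, with 3.21 and 2.69 CPM in EN00 and EN24, it was higher by 1.44 ± 0.21 (adjusted p = 0.0196), with 1.53 and an adjusted p of 0.265 without EN00 and ED24. Ucp3 (-1.28 ± 0.20, adjusted p = 0.0294) and Cyp2e1, a cytochrome P450 of ethanol and acetone metabolism, were the other genes called here and not by day. Cyp2e1 had 279, 174 and 305 CPM in ED04, ED08 and ED28, against 103, 107, 128 and 140 CPM in EN00, EN24, EN04 and EN28 (1.11 ± 0.15, adjusted p = 0.0125).

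**Figure D4:**
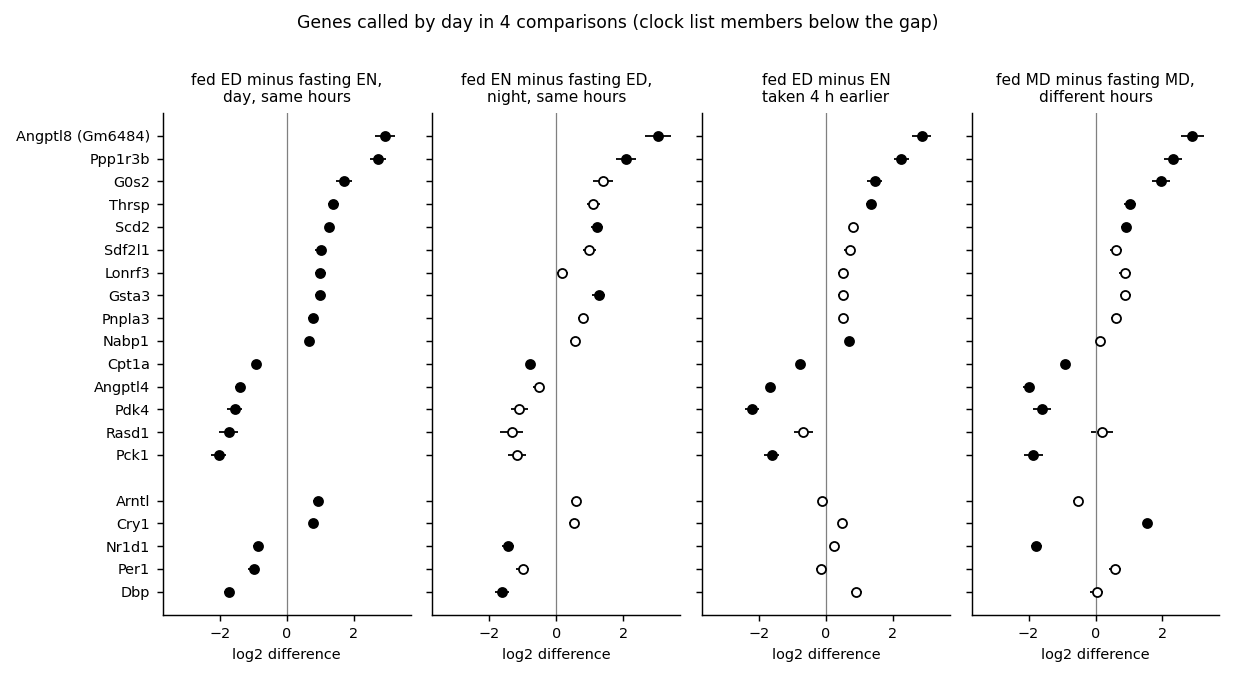
Log2 differences with standard errors of the 20 genes called by day in 4 comparisons, filled where adjusted p was under 0.05. The 15 genes outside the clock lists stay on their side of 0 except Rasd1 in MD, while 3 of the 5 clock genes change sign when EN is taken 4 h earlier and 3 do in MD.

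Second, in MD the pools 3 and 7 h after food opened (MD08, MD12) were set against those 15 and 19 h after it (MD20, MD00, MD24). The clock times of the sides differ here. There were 44 calls, 22 higher (0.14%) and 22 lower (0.14%), of which 11 were also called by day; without MD24 there were 134. These pools share none with the day comparison. Of the 15 day calls outside the clock lists 14 had the same sign. Angptl8 (Gm6484) had 11.9 and 3.66 CPM in MD08 and MD12, against 1.13, 0.57 and 0.81 CPM in MD20, MD00 and MD24 (2.89 ± 0.35, adjusted p = 0.00354). Ppp1r3b had 29.3 and 19.2 CPM in MD08 and MD12, against 6.14, 2.98 and 4.27 CPM in MD20, MD00 and MD24 (2.33 ± 0.27, adjusted p = 0.00305). Angptl4 had 17.4 and 12.6 CPM in MD08 and MD12, against 65.6, 54.0 and 51.8 CPM in MD20, MD00 and MD24 (-1.99 ± 0.17, adjusted p = 0.00014). G0s2, Thrsp, Scd2, Cpt1a, Pdk4 and Pck1 also passed in their day direction. The exception in sign was Rasd1 (0.20 ± 0.32, against -1.74 ± 0.28 by day). Of the 5 clock calls 2 had the same sign: Nr1d1 lay at -1.77 ± 0.17 (adjusted p = 0.000419), Cry1 at 1.55 ± 0.14 (adjusted p = 0.000162), Per1 at 0.58 ± 0.18 (adjusted p = 0.271), Arntl at -0.53 ± 0.14 (adjusted p = 0.2) and Dbp at 0.03 ± 0.19 (adjusted p = 0.975).

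By night the food states are exchanged: EN16 and EN20 were taken 4 and 8 h after food opened, and ED16 and ED20 after 16 and 20 h. This comparison uses none of the day pools, but a displaced daily curve also changes sign between day and night, so it does not part food from clock phase. Fed EN against fasting ED gave 9 calls, 4 higher (0.0254%) and 5 lower (0.0318%), 7 of them also called by day, and all 20 day calls had the same sign of fed minus fasting. Angptl8 (Gm6484) had 13.6 and 4.30 CPM in EN16 and EN20, against 0.98 and 0.89 CPM in ED16 and ED20 (3.03 ± 0.39, adjusted p = 0.0244). Scd2 had 198 and 302 CPM in EN16 and EN20, against 122 and 89.8 CPM in ED16 and ED20 (1.23 ± 0.18, adjusted p = 0.0257). Cpt1a had 59.3 and 58.2 CPM in EN16 and EN20, against 109 and 94.3 CPM in ED16 and ED20 (-0.79 ± 0.12, adjusted p = 0.032). Gsta3 had 55.1 and 36.7 CPM in EN16 and EN20, against 16.7 and 20.9 CPM in ED16 and ED20 (1.26 ± 0.18, adjusted p = 0.0257). Dbp, Nr1d1, Nr1d2 and Per3 were the clock genes lower in fed EN (-1.62, -1.44, -1.26 and -1.42). The same sign did not always mean a like size. Angptl4 lay at -0.52 ± 0.16 by night (adjusted p = 0.767), against -1.40 ± 0.14 by day. Lonrf3 lay at 0.17 ± 0.19 by night (adjusted p = 0.849), against 1.01 ± 0.16 by day. Without EN00 and ED24, which enter this comparison through the estimate of the spread, 0 genes passed (edgeR, adjusted p from 0.0544 to 0.166 for these 9); DESeq2 on all pools called 21. Without 1 of its 4 pools it called 0 (EN16 or ED16 left out) or 1 (EN20 or ED20 left out). Each of these fits compared the 1 remaining hour alone, with 1 pool a side. With all pools 968 genes had an unadjusted p under 0.05.

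ED minus EN by day and ED minus EN by night were also added, a sum in which a fed minus fasting difference of equal size cancels. This test called 0 of 15719 genes (0%; 732 at an unadjusted p under 0.05, and 0 with DESeq2).

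The time from food to peak gives the same genes on one axis. For 10 of the 15 day calls outside the clock lists the fitted amplitude reached 0.5 in ED and in EN. In 9 of these 10 the peaks of ED and EN lay closer in hours since food than in clock time, by a median gap of 1.15 h since food and 10.8 h in clock time. Since a day difference chose these genes, that gap in clock time is partly given by the choice. Food opened at ZT0 in ED and at ZT12 in EN, so the 2 gaps of any gene add to 12 h. They are 1 measurement given in 2 ways, for the clock genes below as well. Angptl8 (Gm6484) peaked 4.43 ± 0.64 h after food opened in ED, 5.49 ± 1.53 h in EN and 5.45 ± 1.63 h in MD, and G0s2 4.60 ± 0.49 h in ED, 4.93 ± 0.98 h in EN and 4.503 ± 1.32 h in MD. Scd2 peaked later, 8.08 ± 0.45 h in ED, 9.07 ± 0.79 h in EN and 7.69 ± 1.54 h in MD. Lonrf3 was the exception: its peaks lay 6.66 h apart in food time and 5.34 h apart in clock time. Of the 15 clock genes, 1 was closer in food time, and their median gap was 8.70 h in food time and 3.30 h in clock time.

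**Figure D5:**
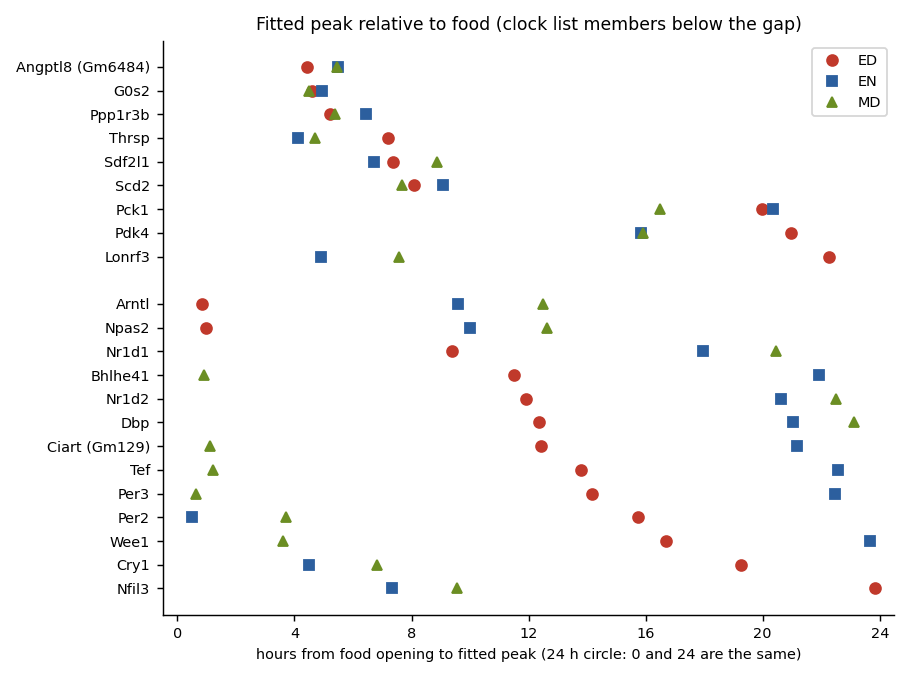
Hours from the opening of food to the fitted peak in ED (circles), EN (squares) and MD (triangles) for the day calls outside the clock lists (above the gap) and the clock genes (below it) with an amplitude of at least 0.5 in all 3 groups. Angptl8, G0s2, Ppp1r3b, Sdf2l1 and Scd2 peak between 4 and 10 h after food in every group, while clock genes such as Dbp peak 12.4 h after food in ED, 21.0 h in EN and 23.1 h in MD.

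Reads in introns, which come largely from unspliced RNA, were compared in the same 6 pools. Here 17 genes were higher in ED (0.117% of 14585) and 19 lower (0.13%). Of the 20 exon calls 17 had an intron row tested, 16 of these with the same sign and 12 called. Ppp1r3b had 136, 67 and 241 intron reads in ED04, ED08 and ED28, against 20, 14 and 13 in EN04, EN08 and EN28 (2.88 ± 0.35, adjusted p = 0.00356). Pdk4 had 80, 50 and 56 intron reads in ED04, ED08 and ED28, against 255, 197 and 229 in EN04, EN08 and EN28 (-2.09 ± 0.17, adjusted p = 0.000523), so that its ED and EN pools, which overlapped in exon reads, were apart in intron reads. Cpt1a (-0.98 ± 0.10, adjusted p = 0.00238) and Arntl (0.95 ± 0.11, adjusted p = 0.00356) had nearly their exon differences. Gsta3 was the gene of opposite sign (-0.43 ± 0.28, adjusted p = 0.75). Other genes were called in intron but not exon reads. They included Acly (1.14 ± 0.185, adjusted p = 0.0292) and Acaca (0.999 ± 0.115, adjusted p = 0.00356), but not Fasn (0.65 ± 0.19, adjusted p = 0.304). Among clock genes they included Npas2 (0.94 ± 0.15, adjusted p = 0.0292), Clock (0.41 ± 0.07, adjusted p = 0.0462), Per3 (-1.09 ± 0.12, adjusted p = 0.00356) and Tef (-0.83 ± 0.12, adjusted p = 0.0122), but not Nr1d2, Nfil3 or Ciart.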

How the data were processed

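The authors' main table gives raw integer counts for the exons and the introns of each gene model, per the file headers. A deposited table of RPKM, adjusted by cqn as its name says, served as an alternative. The submitters' processing notes list TopHat2, SAMtools, HOMER and build mm10 with no version; counting settings, strand among them, were not given in the sources used here. One row per symbol was kept (29758 of 31872 models). Genes passed filterByExpr by feeding group (minimum count 10, minimum total 15). Tests were edgeR 4.0.16 quasi-likelihood F tests (limma 3.58.1, R 4.3.3; DESeq2 1.42.0 as alternative) on all 24 pools with a mean for each of 18 cells of group and clock time, TMM, Benjamini-Hochberg adjustment over all genes tested, threshold 0.05. The day contrast weighs ZT4 by 2/3 and ZT8 by 1/3. No label says that pools are separate mice, so p-values measure the spread between pools. Peak times are least squares cosine fits of 24 h on log2 CPM (prior count 2). Promoter sequences and positions are RefSeq's on GRCm38.p6. Named genes are members of 31 lists and, for the day comparison, up to 15 largest calls in each direction with the same sign at 3 times and at least 1 CPM, and up to 5 in each direction elsewhere. Members, lists and tests were chosen with earlier results of these data known; the MD and intron comparisons were added after results were seen. The code was tested on simulated data. There 15 of 190 calls of the day comparison were false, a larger share than the threshold of 0.05. It recovered 78% of genes changed by 1 (log2) and 97% of those changed by 2. RNA had a RIN above 6.5, per the labels.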

Additional observations from a re-analysis of the deposited data

Results flagged for a closer look

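Of 76 sets of 8 pools examined (depth, marker sums and the 20 day calls by feeding group), 16 held 1 pool far from the rest by Dixon's criterion, which chance gives in about 1 of 20 sets; the 8 pools of a group differ in sampling time, and the part of time or tissue sampling in these values was not tested. Hair follicle keratins of the growing stage summed to 958 CPM in ED24, 2735 CPM in EN00 and 65.4 CPM in MD08, and melanocyte markers to 81.8 CPM in ED24 and 41.7 CPM in EN00. Within their own feeding group, macrophage markers were lowest in ED28 (305 CPM), one of the pools of the day comparison, and neutrophil markers highest in ED12 (15.4 CPM) and MD04 (27.6 CPM). Likewise within the group, fat cell markers were highest in EN12 (2023 CPM), endothelial markers in MD16 (259 CPM), and muscle markers lowest in MD00 (11650 CPM). EN20 was the deepest pool (26052550 exon counts). Among genes, EN16, the pool 4 h after food opened, stood above the other EN pools for Gm6484 (13.6 CPM), Ppp1r3b (34.1 CPM) and Nabp1 (65.4 CPM), and EN08 for Dbp (146 CPM).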

How the results depend on the processing

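The day count of 20 became 100 with no filter on low counts, 76 with DESeq2, 32 in a fit of the 6 pools with clock time, 9 in a fit of the 6 pools with feeding group alone and 12 with equal weight on ZT4 and ZT8. In the fit of 6 pools with sampling time as a replicate block it was 34 (15 shared); same-hour pools deviated together with r = 0.0338, 0.293 and 0.00643, so the numbers were not taken to pair them. Leaving out 1 pool gave 9 to 21 calls, with 10 without ED08, EN08 or ED28 and 9 without EN04. The fits without ED08 or EN08 compared ZT4 alone, and each night fit without 1 of its pools compared 1 hour alone. Gm6484, Ppp1r3b and Thrsp passed in all 10 alternatives and without each of the 6 pools, Angptl4, Cpt1a and Dbp without each pool and in 9 of 10 alternatives, and all 20 kept their sign in both. The night count of 9 was 38 with no filter, 21 with DESeq2, 5 with cosine curves, 0 without ED24 and EN00, and 0 to 1 without 1 of its pools. The count of 12 against EN taken 4 h earlier was 123 with no filter, 52 with DESeq2, 20 on RPKM, 1 with cosine curves, 4 without ED24 and EN00, and 4 to 14 without 1 pool (4 without EN00, 6 without ED28). The MD count of 44 was 193 with no filter, 92 with DESeq2, and 42 to 134 without MD00 or MD24 (134 without MD24). For ZT8 against ZT4 the count of 0 was 1 with no filter and 1 with DESeq2, and for day plus night 1 with no filter. Differences near 0 changed sign: Per2 by day was 0.106 with cosine curves and ranged from -0.498 to 0.508 without 1 pool (0.00649, 0.508, 0.0248 and 0.508 without ED04, ED08, EN04 and EN08), Per1 against EN taken 4 h earlier was 0.202 with cosine curves and -0.363 to 0.0267 without 1 pool (0.0267 without ED28), and Dbp in MD was -0.0669 on RPKM and -0.0651 to 0.15 without 1 pool (-0.0651 without MD00). The cause was not tested. DESeq2 scaling in edgeR, RPKM by day and the fit without ED24 and EN00 by day left the day count within 1.5 times.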

Other observations

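At the hour food opened, some of the fed-state genes were already high in ED and not in EN. Gm6484 (Angptl8) had 8.75 and 9.74 CPM in ED00 and ED24, against 0.96 CPM in EN12, and 0.89 CPM in ED20, the ED pool taken 20 h after food. G0s2 had 31.7 and 26.0 CPM in ED00 and ED24, against 17.9 CPM in EN12, and Ppp1r3b 10.7 and 13.4 CPM in ED00 and ED24, against 4.21 CPM in EN12. Gsta3 lay the other way, with 26.5 and 23.1 CPM in ED00 and ED24, against 46.4 CPM in EN12, as did Thrsp with 126 and 143 CPM in ED00 and ED24, against 169 CPM in EN12. These genes were picked after their values were seen, EN has 1 pool at that hour, and how soon after opening the skin was taken was not given in the sources used here.

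Among the 6 pools of the day comparison, ED28 and EN04 are the only ED and EN pools that share the first number of the library code in the labels. Between them the difference, a value with no test, was 3.35 for Gm6484, 3.03 for Ppp1r3b, -2.16 for Pck1, -1.41 for Angptl4 and -2.06 for Dbp. Every gene called by day kept its sign between these pools, but sizes moved both ways. Smaller, among others, were Pnpla3 (0.399, against 0.78 by day), Thrsp (0.929, against 1.39) and Pdk4 (-1.08, against -1.55). Larger, among others, were Rasd1 (-2.57, against -1.74), Nr1d1 (-1.45, against -0.86) and Cry1 (1.44, against 0.79). The part of the library code in these values was not tested.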
